A study of Mus musculus with 8 samples.

Results

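The genes of glycolysis and of the branch point where pyruvate is either made into lactate or passed to the mitochondria were examined in sorted mouse haematopoietic stem cells (HSCs). The set was chosen by symbol and holds 38 genes of the 55487 gene rows in the count files: glucose transporters, the enzymes from hexokinase to lactate dehydrogenase, the enzymes that set fructose-2,6-bisphosphate, the kinases and a phosphatase of pyruvate dehydrogenase, lactate and pyruvate carriers, and Hif1a. All 38 symbols were found, and 35 of them were among the 14360 genes with enough counts to be tested. A further row named Aldoa, 799 bases long, held few counts and is not part of the values below. RNA was amplified as full-length cDNA by Smart-seq2, a method for small inputs, and sequenced in bulk. There were 4 libraries labelled miR652-KD, in which the microRNA miR-652 was knocked down, and 4 labelled NTC, a non-target control. Both groups share the label hematopoietic stem cell, and neither the method of knockdown, the surface markers of the sort, the age of the mice nor whether replicates came from separate animals is given in the labels. The p-values below thus reflect only how far these libraries scatter, and that scatter may be technical. Levels are given as CPM, read counts scaled to a common library size with TMM normalization, and differences are log2 fold changes of miR652-KD relative to NTC.

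Glycolysis splits glucose into pyruvate in the cytosol and yields ATP without oxygen. Lactate dehydrogenase then turns pyruvate into lactate, which leaves the cell through monocarboxylate transporters, while the mitochondrial pyruvate carrier and the pyruvate dehydrogenase complex feed it to respiration. Pyruvate dehydrogenase kinases shut that complex off, phosphatases turn it back on, and the oxygen-sensitive factor HIF-1 alpha raises many glycolytic genes. Quiescent mouse HSCs are known for their reliance on glycolysis, for which Hif1a, Pdk2 and Pdk4 have been described as regulators.

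The microRNA that differs between the groups has 2 mature arms, shown here because microRNAs pair with targets mainly through the seed. The sequences are those of RefSeq (GRCm38.p6, the same build as mm10), with the seed, bases 2 to 8, in capitals.
mmu-miR-652-5p: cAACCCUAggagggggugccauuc
mmu-miR-652-3p: aAUGGCGCcacuaggguugug
The 5p arm lies at chrX:142739020-142739043 and the 3p arm at chrX:142739060-142739080, plus strand. The longest annotated 3′ UTR of each gene (GENCODE M21) was searched for 7-base sites of 2 kinds. A 7mer-m8 matches bases 2 to 8, a 7mer-A1 matches bases 2 to 7 and adds an A, and an 8mer has both. A site for the 5p arm was found in 5 of 38 genes of the set, against 12.2% of 21039 protein-coding genes. For the 3p arm it was 1 of 38, against 2.39%. The only site in Slc16a1 is a 7mer-A1, without a match to base 8. Some of these sites are shown in capitals, including the added A, which need not pair, and each is given on the transcript strand.
Pfkp (5p, 8mer): tcactgttTAGGGTTAatgattg
Pdk1 (5p, 7mer-m8): gttagggaTAGGGTTggagatc
Pdk1 (5p, 7mer-A1): aggtggccAGGGTTAggtttgg
Slc16a1 (5p, 7mer-A1): aaaccacgAGGGTTAgagtttg
Slc16a3 (5p, 7mer-m8): gctgccccTAGGGTTtgttcaa
Eno2 (3p, 7mer-m8): actcccctGCGCCATgtcccac
No gene with a match passed the threshold between the groups, and log2 differences of these genes had both signs. A sequence match is not evidence that the site is used.

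Counts in genes totalled 14677644 to 19894821 reads in miR652-KD and 14017632 to 16763709 reads in NTC. The precursor of miR-652 had 5, 0, 0 and 0 counts in miR652-KD and 1, 0, 0 and 2 counts in NTC, and the mature arms are not captured by Smart-seq2, so these files do not check the knockdown. All 14 HSC marker genes passed the filter on low counts, and none was called. Their summed level was 3441 to 3756 CPM in miR652-KD and 3567 to 4201 CPM in NTC, with overlap. The sum hides differences of both signs: 6 genes were above 0 and 8 below on the log2 scale. At an unadjusted p below 0.05, 2 were higher in miR652-KD and 3 lower, where 2.9% of all genes were higher and 3.09% lower. Cd34 had the smallest p of the list, with a log2 difference of -0.71 (edgeR adjusted p = 0.125). The groups did not overlap in Cd34, in Kit (-0.34) and in Ly6a (0.62), as was the case in 4.39% of all genes. Markers of other cells were present too: 12 erythroid markers summed to 1825 to 4606 CPM in miR652-KD and 4085 to 8154 CPM in NTC, 13 granulocyte and monocyte markers to 1436 to 6673 CPM in miR652-KD and 1374 to 17822 CPM in NTC, and 13 macrophage and dendritic markers, among them MHC class II genes, to 2057 to 2569 CPM in miR652-KD and 942 to 1344 CPM in NTC. The erythroid and the granulocyte and monocyte sums overlapped between the groups and no gene of either list was called, but 10 of 12 tested erythroid genes had a log2 difference below 0 (median -2.41), as had 12 of 12 tested granulocyte and monocyte genes (median -1.02). Car2 alone took 1786 to 2237 CPM in miR652-KD and 1305 to 2218 CPM in NTC of the erythroid sum, while Alas2, the haem synthesis enzyme of red cells, was at 1.70 to 17.4 CPM in miR652-KD and 42.4 to 59.5 CPM in NTC without overlap. The macrophage and dendritic sums did not overlap, and nearly all of them came from the MHC class II genes H2-Aa, H2-Ab1 and H2-Eb1 and the invariant chain Cd74. Past the threshold were 3 of 8 tested genes, Cd74, H2-Eb1 and H2-Aa, all higher in miR652-KD, where 0.0418% of all genes passed. The other genes of that list did not pass or were too low to test. On the log2 scale H2-Ab1 was at 0.72 and Cd68 at 0.99, both without overlap. Cd68 had 39.8 to 60.7 CPM in miR652-KD and 14.8 to 32.0 CPM in NTC. C1qa was at 0.05, Flt3 at -0.52 and C1qb at -0.54. Adgre1, Itgax and Csf1r reached at most 8.30 CPM, and Csf1r had counts in every miR652-KD library and in no NTC library. The sums of 12 lymphoid, 8 megakaryocyte and 8 mast cell and basophil markers overlapped between the groups, and Cd3e, Cd3g, Prss34, Cma1, Tpsb2, Gzmb and Gp6 had no count in any library. Itgb3, Cpa3 and Csf3r, each of the smallest p in its list, did not overlap and were lower in miR652-KD, but none was called. Itgb3, a megakaryocyte marker, had 26.6 to 36.6 CPM in miR652-KD and 48.5 to 71.0 CPM in NTC. The mast cell marker Cpa3 had 2.14 to 8.57 and 11.9 to 33.9 CPM in the same order. Of 7 tested megakaryocyte genes 5 were above 0, as was 1 of 2 tested mast cell and basophil genes. The 18 G2 and M phase genes summed to 878 to 1914 CPM in miR652-KD and 688 to 1114 CPM in NTC, with overlap. Of these genes 17 had a log2 difference above 0 (median 0.61) and 8 were higher in miR652-KD at an unadjusted p below 0.05, a level that 2.9% of all genes reached in that direction, and none passed the threshold. The part of these cells or cycling states in the results below was not tested except where a value is given, and in bulk samples fewer cells of a type and less RNA per cell cannot be told apart. NTC replicate 1 had the highest share of reads outside annotated genes, 16.9% against 9.69% to 11.3% in the other 7 libraries.

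Levels differed widely within the set, with lactate dehydrogenase and aldolase at the top. Per kilobase of annotated exon, Ldha, which makes the muscle-type subunit of lactate dehydrogenase, was the most abundant gene of the set at 467 CPM per kilobase and ranked 97 of the genes tested. It was followed by Aldoa at 335, Pkm at 230.1, Tpi1 at 184, Ldhb at 150.1, Eno1 at 132, Pgam1 at 104.5, Pgk1 at 99.3 and Gpi1 at 80.7 CPM per kilobase. Ldhb and Eno1, and likewise Pgam1 and Pgk1, are neighbours in that order that differed by less than the SD of either gene over the 8 libraries. Among genes that act before or at the committed step, Gpi1 was the highest. The glucose transporters, hexokinases and phosphofructokinases lay between 6.41 for Pfkp and 38.8 for Pfkl. Hif1a was at 5.11 CPM per kilobase, rank 7802 of the genes tested, and the 4 Pfkfb genes, Eno2, Slc16a3 and Tigar were at 2.80 or less. The order depends on the length used. Per kilobase of the longest transcript, Ldha, Aldoa and Pkm still led, but the order below them changed. By that length Eno1 was at 349, Tpi1 at 315, Ldhb at 181, Gpi1 at 163, Pgk1 at 122 and Pgam1 at 117 CPM per kilobase.

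**Figure D1:**
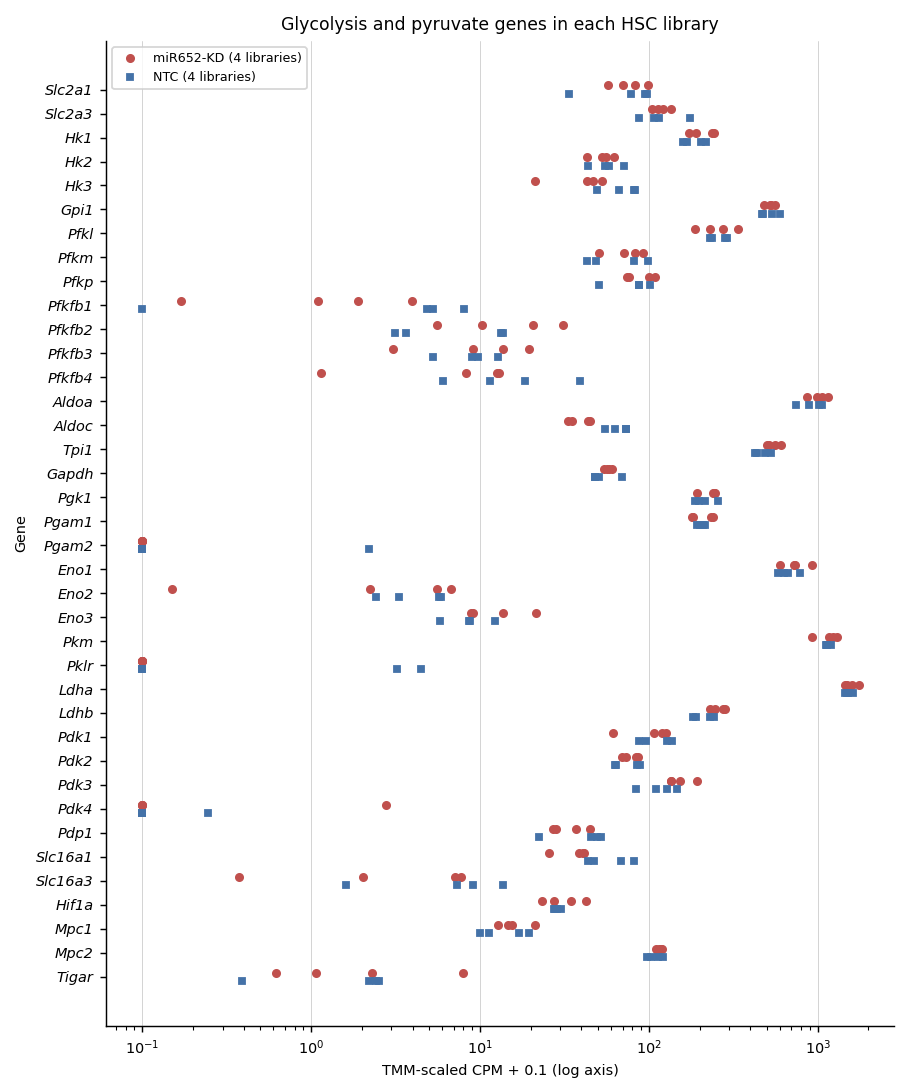
Level of each of the 38 genes in each library, as TMM-scaled CPM plus 0.1 on a log axis, with miR652-KD as circles and NTC as squares. Only Aldoc and Slc16a1 among the tested genes have all miR652-KD points on 1 side of all NTC points, while Pgam2, Pklr and Pdk4 are at 0 in most libraries.

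Gapdh, widely used as a reference transcript, was low in the deposited counts. It had 58.4, 60.2, 56.7 and 54.1 CPM in miR652-KD against 50.6, 69.7, 47.8 and 48.1 CPM in NTC (replicates 1 to 4 in each). Per kilobase it stood at 13.5 CPM, below Tpi1 and Pgk1, the enzymes before and after it in the pathway. Of the 50-base windows along its longest transcript, 27.8% also occur in transcripts of 218 other annotated genes, and how reads that match several genes were counted is not stated in the labels. Pgk1 (68.0%), Eno1 (72.2%), Pgam1 (41.5%), Pkm (34.4%) and Ldhb (27.0%) share windows in the same way, so that their levels relative to other genes are uncertain. Aldoc, Slc16a1, Hk2, Hk3 and Pdk1 to Pdk3 share no such window with another annotated gene.

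None of the 35 tested genes passed the threshold between the groups (edgeR quasi-likelihood test, Benjamini-Hochberg adjusted p below 0.05), while 0.0418% of all genes did, 6 of 14360. Adjusted p-values of the set started at 0.598. At an unadjusted p below 0.05 there were 4 genes of the set, 1 higher in miR652-KD and 3 lower, where 5.99% of all genes reached that level, 2.9% higher and 3.09% lower. DESeq2 called none of the set and 0.425% of all genes. Log2 differences were above 0 for 23 of the 35, where 49.5% of all genes were above 0, and their median was 0.07 against -0.0043 for all genes. Without miR652-KD replicate 1 the median was 0.0011, with 18 of 35 above 0. Summed over the 19 genes from hexokinase to pyruvate kinase, levels were 5468, 5480.3, 4483 and 5650.1 CPM in miR652-KD and 4780.1, 5006, 5164 and 5103 CPM in NTC. The lowest and the highest of these sums were both in miR652-KD libraries, with NTC between them.

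**Figure D2:**
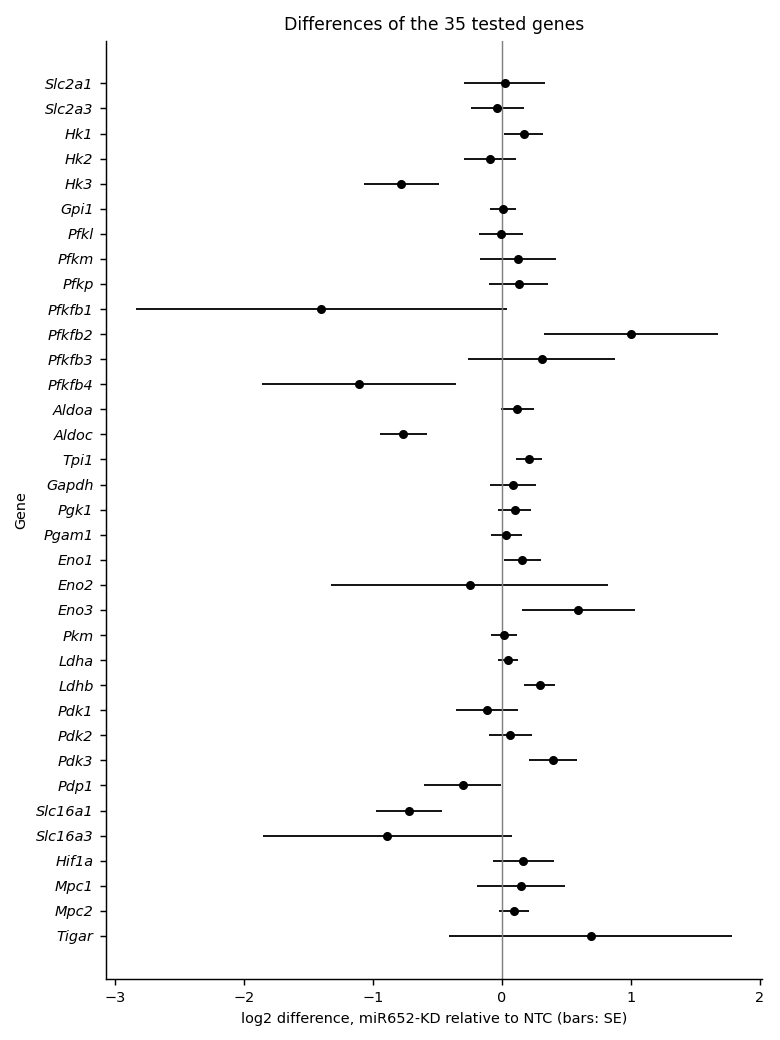
Log2 difference of each tested gene, miR652-KD relative to NTC, with bars of 1 SE, in pathway order. The abundant enzymes lie within 0.3 of 0, Aldoc, Slc16a1 and Hk3 lie between -0.78 and -0.72, and the Pfkfb genes, Eno2, Slc16a3 and Tigar have wide bars.

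The smallest p of the set was that of Aldoc, the brain-type aldolase (ENSMUSG00000017390.15, chromosome 11, 78322968 to 78327781, plus strand, mm10). It had 34.9, 43.5, 44.6 and 33.3 CPM across miR652-KD replicates 1 to 4. Control values were 55.0, 73.4, 73.2 and 63.4 CPM in NTC replicates 1 to 4. All miR652-KD values lay below all NTC values, as was the case in 2 of the 35 genes of the set and in 2.13% of all genes. Counting both directions, the groups did not overlap in 4.39% of all genes. Means were 39.1 ± 5.81 CPM in miR652-KD and 66.3 ± 8.82 CPM in NTC (SD, n = 4 each). The log2 difference of -0.76 ± 0.18 (SE) missed the threshold (edgeR adjusted p = 0.598), and over DESeq2 and the other fits it ran from -0.84 to -0.69 with adjusted p from 0.103 to 0.905. Without NTC replicates 3 and 4, whose S100a9 levels (a calgranulin of neutrophils) were 779.6 and 1192 CPM where the other 6 libraries had at most 11.6 CPM, the difference in Aldoc was -0.72.

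Aldoa, the ubiquitous aldolase, carried most of the family's transcripts. It was at 986, 1146, 866 and 1064 CPM in miR652-KD against 748, 1024, 894 and 1067 CPM in NTC (replicates 1 to 4 in each). The ranges overlapped, and the log2 fold change was 0.12 ± 0.13 (SE) with an edgeR adjusted p of 0.995. Without NTC replicate 1 that fold change was 0.030. The share of Aldoc in the per-length level of the pair was 3.06, 3.28, 4.39 and 2.71% in miR652-KD and 6.16, 6.01, 6.81 and 5.04% in NTC. It was thus lower in each miR652-KD library than in any NTC library, at means of 3.36% ± 0.727 in miR652-KD and 6.002% ± 0.732 in NTC (SD, n = 4 each). That gave an exact two-sided permutation p of 0.0286, the smallest that 70 splits of 8 libraries allow, and 0.411 after adjustment over the 24 family shares compared. It was the 1 share of the 24 without overlap. With 24 shares the smallest possible p does not pass adjustment unless many shares reach it together.

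Slc16a1 encodes the monocarboxylate transporter MCT1, which carries lactate and pyruvate across the plasma membrane (ENSMUSG00000032902.1, chromosome 3, 104638668 to 104658462, plus strand). Its levels were 40.9, 41.0, 25.6 and 38.8 CPM across miR652-KD replicates 1 to 4. In the control they were 47.6, 81.8, 43.6 and 68.0 CPM in NTC replicates 1 to 4. The groups did not overlap, though NTC replicates 1 and 3 stood only a little above miR652-KD replicates 1 and 2. At means of 36.6 ± 7.40 CPM in miR652-KD and 60.3 ± 17.9 CPM in NTC (SD, n = 4 each) the log2 difference was -0.72 ± 0.26 (SE) and did not pass (edgeR adjusted p = 0.781). Genes without overlap made up 2.13% of all genes in this direction and 2.26% in the other, in which the set had none. The library highest in Slc16a1, NTC replicate 2, was also highest in the erythroid markers, which summed to 1825, 2271, 2067 and 4606 CPM in miR652-KD and 4085, 8154, 4373 and 5528 CPM in NTC in replicates 1 to 4. Without that library the difference in Slc16a1 was -0.53. The erythroid sum of miR652-KD replicate 4 was above those of NTC replicates 1 and 3, and its level of Slc16a1 was lower. Car2 gave 2237 CPM of that sum, against 1736 and 1986 CPM in NTC replicates 1 and 3. Alas2 was at 17.4 CPM in miR652-KD replicate 4 and at 42.4 to 59.5 CPM in NTC. A link was not tested. The other exporter of the set, Slc16a3 (MCT4), was at 0.277, 7.06, 1.94 and 7.63 CPM in miR652-KD against 1.51, 13.6, 9.002 and 7.21 CPM in NTC, with overlap and a log2 difference of -0.89 ± 0.96 (SE).

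Hk3, the hexokinase of white blood cells, also had lower values in miR652-KD. It was at 43.0, 21.1, 52.9 and 46.7 CPM across miR652-KD replicates 1 to 4. Controls were at 49.4, 81.5, 67.0 and 83.4 CPM in NTC replicates 1 to 4. NTC replicate 1 lay within the miR652-KD range, so the groups overlapped. The log2 fold change was -0.78 ± 0.29 (SE) with an edgeR adjusted p of 0.801 at means of 40.9 ± 13.8 CPM in miR652-KD and 70.3 ± 15.8 CPM in NTC (SD, n = 4 each). Summed granulocyte and monocyte markers stood at 6673, 2139.9, 1436 and 1855 CPM in miR652-KD and 1374, 4781, 11457 and 17822 CPM in NTC in replicates 1 to 4. The highest sum was in the library that was also highest in Hk3. The sum of miR652-KD replicate 1 was above that of NTC replicate 2, and its level of Hk3 was lower. A link was not tested. Without NTC replicates 3 and 4 the difference in Hk3 was -0.68.

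Within the hexokinases, Hk1 was the main member per length. Hk1, which is bound to mitochondria in most tissues, was at 192, 243, 174 and 238 CPM in miR652-KD against 219, 160.4, 168 and 205 CPM in NTC (replicates 1 to 4 in each), a log2 difference of 0.17 ± 0.15 (SE). Hk2, the inducible form, averaged 53.5 ± 7.91 CPM in miR652-KD and 57.0 ± 11.4 CPM in NTC (SD, n = 4 each). The share of Hk3 in the family was 26.2, 13.3, 34.2 and 25.4% in miR652-KD and 28.9, 43.7, 38.6 and 38.6% in NTC, and that of Hk1 was 50.4, 66.1, 48.5 and 55.9% in miR652-KD and 55.3, 37.1, 41.9 and 40.9% in NTC. Both overlapped between the groups, with exact permutation p of 0.0571 for Hk3 and 0.0857 for Hk1, each 0.411 after adjustment. Counted per longest transcript in place of all annotated exon, the share of Hk3 was 17.9% in miR652-KD and 28.7% in NTC.

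**Figure D3:**
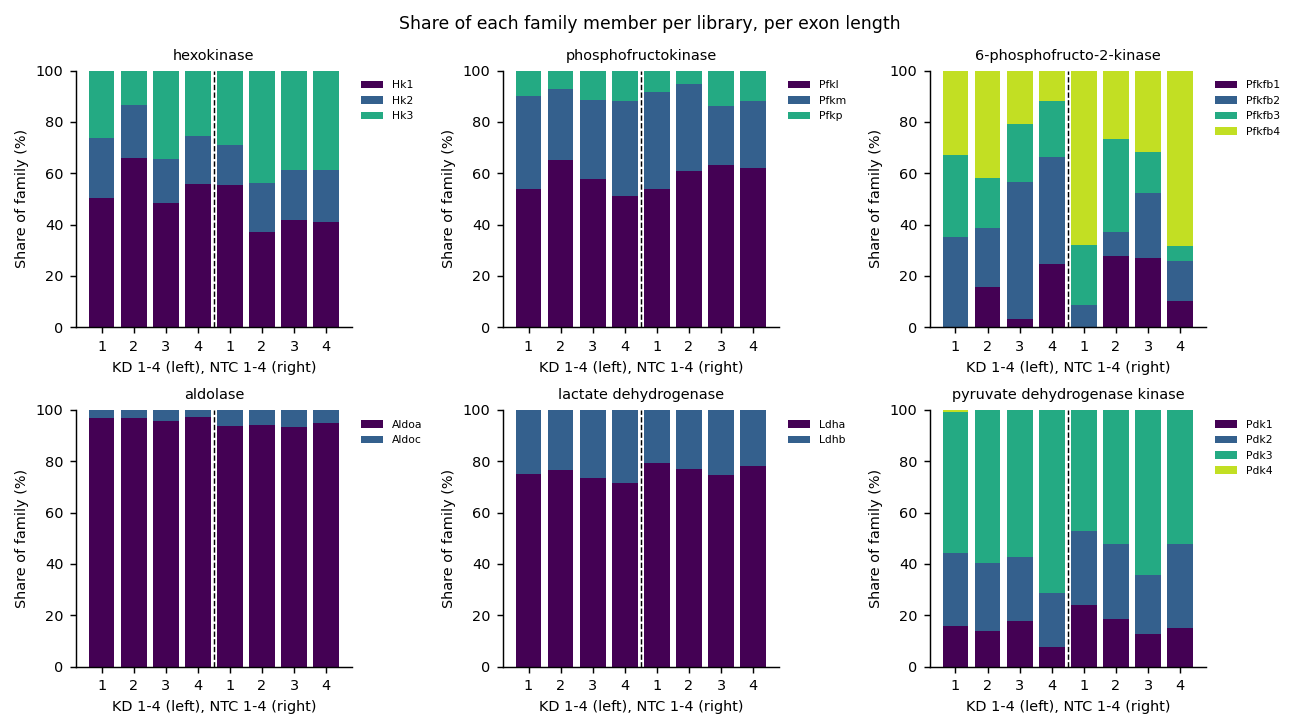
Share of each member in its enzyme family in each library, in percent of the summed CPM per kilobase of annotated exon, with miR652-KD replicates 1 to 4 left of the dashed line and NTC replicates 1 to 4 right of it. Aldoc takes 2.71% to 4.39% in miR652-KD and 5.04% to 6.81% in NTC, whereas the Pfkfb shares differ widely between libraries of both groups.

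The glucose transporters overlapped between the groups and did not pass the threshold. Slc2a1 (GLUT1), the basal transporter, was at 57.0, 83.3, 99.1 and 70.7 CPM in miR652-KD against 95.2, 78.7, 33.5 and 97.5 CPM in NTC in replicates 1 to 4. NTC replicate 3 was the lowest library, and without it the log2 difference of 0.03 ± 0.31 (SE) turned to -0.22. Slc2a3 (GLUT3), a transporter of high affinity, averaged 119 ± 13.3 CPM in miR652-KD and 121 ± 38.3 CPM in NTC (SD, n = 4 each), a log2 difference of -0.03 ± 0.20 (SE). Per length Slc2a1 made up 57.0% ± 6.48 in miR652-KD and 55.1% ± 12.8 in NTC of the pair (SD, n = 4 each).

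Phosphofructokinase, the committed step, was mostly of the liver type in these cells. Pfkl was at 275, 339, 188 and 232 CPM in miR652-KD against 281, 291, 236 and 231 CPM in NTC (replicates 1 to 4 in each), with a log2 difference of -0.01 ± 0.17 (SE) that changed sign under 7 of the other settings. Pfkm, the muscle type, averaged 74.3 ± 17.9 CPM in miR652-KD and 68.0 ± 26.7 CPM in NTC (SD, n = 4 each). Pfkp, the platelet type, averaged 89.8 ± 17.6 CPM in miR652-KD and 82.0 ± 21.7 CPM in NTC. Per-length shares of Pfkl were 57.1% ± 6.12 in miR652-KD and 60.0% ± 4.25 in NTC, and no library had Pfkp above 13.6%. Pfkm shares exon bases with Senp1, which is on the opposite strand and was among the 6 genes past the threshold at 127 to 161 CPM in miR652-KD and 44.9 to 67.7 CPM in NTC. Exons of Senp1 and of another gene cover 10.7% of the Pfkm exons. Pfkm itself had a log2 fold change of 0.13 ± 0.29 (SE), at an edgeR adjusted p of 0.999.

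The Pfkfb genes, whose enzymes make and break fructose-2,6-bisphosphate, the activator of phosphofructokinase, were low and uneven. Pfkfb2 was at 20.6, 10.2, 31.0 and 5.48 CPM in miR652-KD against 3.54, 3.06, 13.7 and 13.3 CPM in NTC (replicates 1 to 4 in each). A log2 fold change of 1.00 ± 0.67 (SE) missed the threshold (edgeR adjusted p = 0.944), and it was 2.34 without NTC replicates 3 and 4 and 0.53 without miR652-KD replicate 3. Of its exon length 19.5% is also exon of other genes. Pfkfb4 had 12.9, 12.5, 8.17 and 1.05 CPM in miR652-KD against 18.3, 5.98, 11.4 and 38.9 CPM in NTC in the same order. The lowest library was in miR652-KD and the highest in NTC, and the log2 difference of -1.10 ± 0.75 (SE) was -0.45 without NTC replicate 4. Pfkfb3, the form of highest kinase activity, averaged 11.3 ± 7.02 CPM in miR652-KD and 9.12 ± 3.08 CPM in NTC (SD, n = 4 each). Pfkfb1 and Tigar, a fructose-2,6-bisphosphatase that opposes these kinases, reached at most 7.98 and 7.88 CPM in any library.

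None of the genes from triose phosphate to pyruvate passed the threshold. Tpi1, which interconverts the triose phosphates, was at 604, 559, 499 and 515 CPM in miR652-KD against 435, 532, 486 and 425 CPM in NTC (replicates 1 to 4 in each). The highest NTC library overlapped the lower miR652-KD libraries, and the log2 difference of 0.21 ± 0.10 (SE) did not pass (edgeR adjusted p = 0.857). Gpi1 and Pgk1 had differences of 0.01 ± 0.10 (SE) and 0.10 ± 0.13 (SE). Pgam1, the phosphoglycerate mutase of most tissues, was at 241, 183, 181 and 234 CPM in miR652-KD against 193, 214, 200.3 and 211 CPM in NTC in the same order, a log2 difference of 0.04 ± 0.12 (SE). The muscle form Pgam2 had 29 counts in NTC replicate 2 and none elsewhere.

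Enolase was almost all Eno1 and pyruvate kinase almost all Pkm. Eno1 had 739, 723, 597 and 929 CPM in miR652-KD against 634, 579, 789 and 670.2 CPM in NTC (replicates 1 to 4 in each). The ranges overlapped, and the log2 fold change was 0.16 ± 0.14 (SE). Adding the counts of Eno1b, an almost identical copy, gave 0.16 as well, and without miR652-KD replicate 4 the value for Eno1 was 0.037. The muscle and neuronal forms Eno3 and Eno2 were low. Eno3 averaged 13.2 ± 5.89 CPM in miR652-KD and 8.75 ± 2.63 CPM in NTC (SD, n = 4 each). Eno2 averaged 3.57 ± 3.03 CPM in miR652-KD and 4.24 ± 1.73 CPM in NTC. Pkm stood at 1227, 1175, 925 and 1306 CPM in miR652-KD against 1195, 1118, 1131 and 1129.8 CPM in NTC, a log2 difference of 0.02 ± 0.10 (SE), and the M1 and M2 splice forms are not separated by counts per gene. Pklr, the liver and red cell form, had 48 and 60 counts in NTC replicates 1 and 2 and no count in the other 6 libraries, where up to 0.207 CPM would be allowed by 3 counts.

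Lactate dehydrogenase was dominated by Ldha in every library. Ldha was at 1747, 1598, 1452 and 1492 CPM in miR652-KD against 1491, 1626, 1506 and 1452 CPM in NTC (replicates 1 to 4 in each), a log2 fold change of 0.05 ± 0.08 (SE) with overlap, at an edgeR adjusted p of 0.999. Ldhb, the heart-type subunit, which favours the use of lactate, was at 276, 232, 248 and 283 CPM across miR652-KD replicates 1 to 4. The control values were 182, 229.7, 244 and 191 CPM in NTC replicates 1 to 4. It was the 1 gene of the set higher in miR652-KD at an unadjusted p below 0.05, but the groups overlapped and the difference of 0.29 ± 0.12 (SE) did not pass (edgeR adjusted p = 0.832). The share of Ldhb was 25.9% ± 2.19 in miR652-KD and 22.7% ± 2.097 in NTC (SD, n = 4 each; exact permutation p = 0.0857, adjusted 0.411). Per longest transcript it was 18.7% in miR652-KD and 16.2% in NTC.

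**Figure D4:**
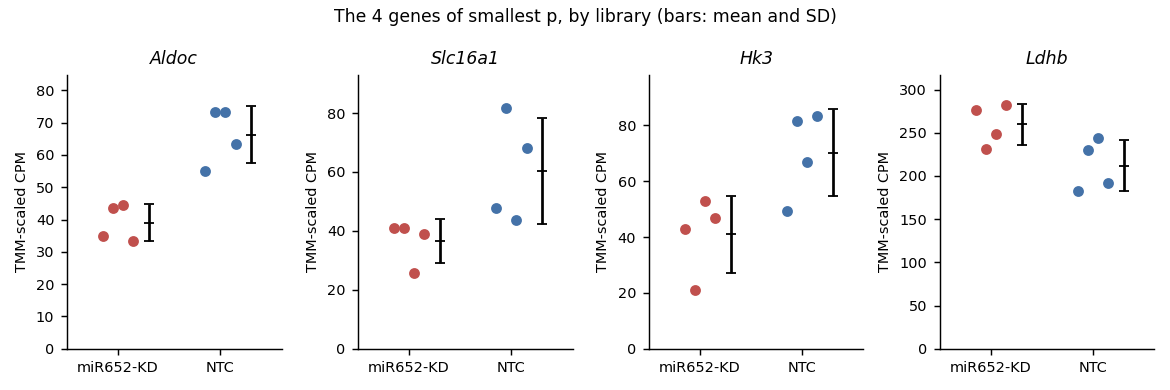
TMM-scaled CPM of the 4 genes of the set with an unadjusted p below 0.05, 1 point per library, with the mean and SD of the 4 libraries of a group beside the points. Aldoc and Slc16a1 do not overlap between the groups, whereas in Hk3 and Ldhb at least 1 library lies within the range of the other group.

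At the pyruvate switch, Pdk3 was the leading pyruvate dehydrogenase kinase per length. It was at 136, 153, 136 and 192 CPM in miR652-KD against 83.8, 128, 146 and 109.9 CPM in NTC (replicates 1 to 4 in each). The library highest in NTC lay above 2 of the miR652-KD libraries, and the log2 fold change was 0.40 ± 0.19 (SE) with an edgeR adjusted p of 0.846. Pdk1 averaged 104 ± 29.3 CPM in miR652-KD and 113 ± 24.3 CPM in NTC (SD, n = 4 each), a log2 difference of -0.11 ± 0.24 (SE). Pdk2 averaged 78.4 ± 8.10 CPM in miR652-KD and 74.9 ± 13.4 CPM in NTC, a log2 difference of 0.07 ± 0.17 (SE). Pdk4, which like Pdk2 has been described as a guard of HSC quiescence, had 39 counts in miR652-KD replicate 1, 2 counts in NTC replicate 2 and none in the other 6 libraries. Pdk3 made up 60.8% ± 7.36 in miR652-KD and 54.1% ± 7.31 in NTC of the family (SD, n = 4 each). Pdp1, the phosphatase that reverses the kinases, was at 34.2 ± 8.46 CPM in miR652-KD and 42.2 ± 13.6 CPM in NTC, a log2 difference of -0.30 ± 0.30 (SE).

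Entry of pyruvate into mitochondria needs both carrier subunits. Mpc2 was at 119, 111, 115 and 119 CPM in miR652-KD against 97.3, 103, 113 and 122 CPM in NTC (replicates 1 to 4 in each), with the smallest spread within miR652-KD, relative to the mean, of the 35 tested genes, and its log2 difference was 0.09 ± 0.12 (SE). Mpc1 averaged 16 ± 3.66 CPM in miR652-KD and 14.4 ± 4.56 CPM in NTC (SD, n = 4 each), and 23.1% of its exon length is also exon of another gene. Hif1a was at 42.2, 23.2, 34.8 and 27.3 CPM in miR652-KD against 30.3, 27.2, 27.7 and 28.4 CPM in NTC in the same order, with miR652-KD on both sides of NTC and a log2 difference of 0.17 ± 0.24 (SE).

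Neighbouring pathways were read from lists of genes outside the set. None of the members of these lists passed over all genes. Of 7 pyruvate dehydrogenase complex genes 6 were above 0, with a median log2 difference of 0.18. The phosphatase Pdp2 had the smallest p, at 122 ± 17.1 CPM in miR652-KD and 84.5 ± 23.6 CPM in NTC (SD, n = 4 each), a log2 difference of 0.53 (edgeR adjusted p = 0.823). Of 18 tricarboxylic acid cycle genes 10 were above 0 (median 0.01), with Ogdh, the oxoglutarate dehydrogenase, at -0.29. Of 7 pentose phosphate genes 2 were above 0 (median -0.14), with Pgd at -0.31. The gluconeogenic genes Pck1, Fbp2 and G6pc had no count in any library, and the 6 tested members of that list had a median of 0.11, with Pcx, pyruvate carboxylase, at 10.3, 8.95, 8.82 and 0 CPM in miR652-KD and 0, 2.92, 0 and 0 CPM in NTC. Among 9 genes that control hypoxia factors 5 were above 0 (median 0.01), and Vhl, which marks HIF-1 alpha for degradation, was at -0.50. Among 11 tested targets of hypoxia factors other than the set itself 4 were above 0 and 7 below (median -0.08). The level summed over all 13 genes of the list was 564, 548, 522 and 583 CPM in miR652-KD and 669, 628, 680.4 and 611 CPM in NTC in replicates 1 to 4. It was lower in each miR652-KD library than in any NTC library, and its largest parts were Bnip3l and Ndrg1. Each of these genes overlapped between the groups. Bnip3l was at 149 to 217 CPM in miR652-KD and 206 to 247 CPM in NTC. Ndrg1 was at 104 to 156 CPM in miR652-KD and 128 to 215 CPM in NTC. The summed levels of all the other lists in this paragraph overlapped between the groups. Among single genes, the groups did not overlap in 4.39% of all genes, a share that does not apply to sums. Ndrg1 had the smallest p, at 125 ± 22.0 CPM in miR652-KD and 174 ± 39.0 CPM in NTC (SD, n = 4 each), a log2 difference of -0.47 (edgeR adjusted p = 0.803).

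Promoters of the set were searched for the core of the hypoxia response element, which HIF-1 alpha binds, as ACGTG or GCGTG on either strand, counting overlapping matches such as those within CACGTG separately. At least 1 match was present in 40 of 57 RefSeq promoter windows of the 36 genes matched by symbol, 70.2%, against 43.8% of 32851 windows of all genes. Each window runs from 250 bases before to 50 bases after a gene start (GRCm38.p6), and base composition was not matched. Windows of the same gene can overlap and hold the same match, as in Eno1, Aldoa and Pfkm, so they are not independent. Shown are the gene of highest level, Ldha, in its window with most matches, and the 2 genes whose groups did not overlap, Aldoc and Slc16a1, all on the plus strand and with matches in capitals.
Ldha, chr7:46845554-46845853: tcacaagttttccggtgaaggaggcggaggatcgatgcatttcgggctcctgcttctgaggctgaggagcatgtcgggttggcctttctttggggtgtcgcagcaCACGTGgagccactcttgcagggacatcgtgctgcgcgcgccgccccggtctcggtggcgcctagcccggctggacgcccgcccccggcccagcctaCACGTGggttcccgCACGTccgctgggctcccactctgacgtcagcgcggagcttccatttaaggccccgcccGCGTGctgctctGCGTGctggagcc
Aldoc, chr11:78322823-78323122: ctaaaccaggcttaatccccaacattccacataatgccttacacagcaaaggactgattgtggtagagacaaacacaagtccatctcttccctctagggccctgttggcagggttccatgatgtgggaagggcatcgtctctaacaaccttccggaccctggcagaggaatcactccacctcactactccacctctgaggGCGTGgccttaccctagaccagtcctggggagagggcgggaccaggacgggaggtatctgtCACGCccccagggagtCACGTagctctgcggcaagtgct
Slc16a1, chr3:104638414-104638713: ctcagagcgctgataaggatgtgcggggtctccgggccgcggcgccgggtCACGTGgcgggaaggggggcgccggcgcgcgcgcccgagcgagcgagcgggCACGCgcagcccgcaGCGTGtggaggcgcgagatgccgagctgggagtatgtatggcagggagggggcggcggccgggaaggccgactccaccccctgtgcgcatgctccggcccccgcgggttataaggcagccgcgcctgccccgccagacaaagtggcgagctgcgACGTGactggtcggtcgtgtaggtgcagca
The windows hold 7, 3 and 5 matches. Log2 differences of the 3 genes were 0.05, -0.76 and -0.72, and a match does not show binding.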

How the data were processed

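RNA was profiled in 8 Smart-seq2 libraries of mouse HSCs, 4 labelled miR652-KD and 4 labelled NTC. The authors deposited whole-number read counts per gene, 1 file per library, not normalized. Per the submitters' processing notes HISAT2 2.1.0, HTSeq 0.11.2 and DESeq2 were used with the mm10 build; no annotation release or setting for strand is named there. The 5 HTSeq summary lines were kept out of all totals and fits; reads outside genes made up 9.69% to 16.9% and ambiguous reads 8.94% to 12.3% of the summed files. Without strand, reads of overlapping antisense genes cannot be told apart. Smart-seq2 reads carry no molecular identifiers, so limits from counts cover counting error only.

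Identifiers were matched to GENCODE M21 (55394 of 55487). Counts were fitted with edgeR 4.0.16 (R 4.3.3): TMM scaling, filterByExpr (minimum count 10, total 15), robust quasi-likelihood F test of group, Benjamini-Hochberg adjustment over 14360 genes. Standard errors were derived from the fold change and its F statistic. Family shares used CPM per kilobase of the union of annotated exons and an exact permutation test in scipy 1.17.1. The procedure was tested on simulated counts. Of the seed-match sites found, 1 is not printed here. The genes of the set, the other lists and the alternatives were chosen with earlier results of these data known. Values in every library are given for genes without overlap, the 4 of smallest p per direction and the leading member of each family per length. Gapdh, Pcx, S100a9, Senp1, Bnip3l, Kit, Ly6a and Cd68 were picked after their values were seen. Also given, though not past the threshold or of smallest p in their lists, are Car2, H2-Ab1, Flt3, C1qa, C1qb, Csf1r, Adgre1 and Itgax. Results were recomputed with upper-quartile or RLE scaling, with limma-voom (limma 3.58.1) and DESeq2 1.42.0, other filters, a non-robust fit, the replicate number as a block, leaving out libraries, Eno1b added to Eno1, other lengths, and, added after seeing the data, both Aldoa rows summed.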

Additional observations from a re-analysis of the deposited data

Results flagged for a closer look

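Within groups of 4 libraries, 8 values of 118 groups checked stood apart, meaning that the gap to the nearest library, relative to the whole range, exceeded Dixon's critical value, which chance alone gives in about 1 of 20 groups. Gapdh was at 69.7 CPM in NTC replicate 2, against 47.8 to 50.6 CPM in the other NTC libraries. Pgk1 was at 194 CPM in miR652-KD replicate 3, against 241 to 246 CPM in the others of that group. Slc16a1 was at 25.6 CPM in the same library, against 38.8 to 41.0 CPM. Pkm was at 1195 CPM in NTC replicate 1, against 1118 to 1131 CPM. Tigar was at 0.292 CPM in NTC replicate 2, against 2.101 to 2.42 CPM. The share of Pgam1 in its family was 97.7% in NTC replicate 2 and 100% in the other NTC libraries. The share of Pdk4 was 0.796% in miR652-KD replicate 1 and 0.0435% in NTC replicate 2, and 0% in all other libraries.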

How the results depend on the processing

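No gene of the set was called under any alternative, and no family share passed adjustment. Of 291 values of the 17 genes named with full values under the alternatives, 275 kept their direction and stayed outside the threshold, with a smallest adjusted p of 0.103, and 16 changed sign. All of those were of Slc2a1, Pfkl, Pgam1 and Pkm, which had differences of 0.03, -0.01, 0.04 and 0.02 with all libraries. Slc2a1 was -0.17 without NTC replicates 3 and 4 and ran from -0.22 to 0.17 when single libraries were left out. Pfkl was 0.013 with upper-quartile scaling, 0.0020 without a filter, 0.0037 with a filter of 5 CPM in 4 libraries and -0.16 to 0.12 without single libraries. Pgam1 ran from -0.032 to 0.10 and Pkm from -0.046 to 0.11 without single libraries, and Pkm was -0.0050 with limma-voom. The cause of these changes was not tested. The number of genes called over all genes was 6, and 61 with DESeq2, 1 with limma-voom, 0 with each single library left out and 0 without NTC replicates 3 and 4 (edgeR, with 884 at an unadjusted p below 0.05 there, 833 to 992 at an unadjusted p below 0.05 without 1 NTC library, 789 to 893 without 1 miR652-KD library). The median log2 difference of the set ran from 0.0011 to 0.11 when single libraries were left out. The replicate numbers did not pair the libraries: deviations of same-numbered libraries correlated between -0.03 and -0.01. With the replicate number as a block 0 genes were called by edgeR, 733 at an unadjusted p below 0.05, and 0 of the set and 0 family shares. The low genes Pfkfb1, Slc16a3, Eno2 and Tigar had SEs of 0.96 to 1.44 on the log2 scale, as their counts scattered widely between libraries of 1 group.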
